A study of Mus musculus with 24 samples.

Results

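Serum amyloid A, orosomucoid and lipocalin 2 are secreted proteins that the liver releases in the acute phase response, and their transcripts were followed here through 8 mouse genes chosen by name: Saa1, Saa2, Saa3, Saa4, Orm1, Orm2, Orm3 and Lcn2. All 8 were found among the 78298 gene IDs of the deposited count table. The libraries came from liver tissue of 18 mice with modelled steatohepatitis, a fatty and inflamed liver, and of 6 normal control mice, with 1 library per mouse. The labels give the model and control groups alone, and neither the way the model was made nor the strain, sex, age or sampling time was given in the sources used here. Library totals lay between 31.6 M and 58.4 M counts, and with the scaled totals behind all CPM values given here, 3 counts stood for 0.0489 to 0.107 CPM.

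In the acute phase response, cytokines such as interleukin 6 and interleukin 1 reach hepatocytes and raise the transcription of a set of secreted proteins, chiefly through STAT3, NF-kB and the C/EBP factors. Serum amyloid A proteins travel on high-density lipoprotein. Orosomucoid, also called alpha-1-acid glycoprotein, carries drugs and other small ligands in plasma. Lipocalin 2 binds the iron-scavenging siderophores of bacteria and was first known from neutrophil granules.

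The genes lie in 3 places of the GRCm39 genome, at the coordinates of the deposited table. The Saa genes share a stretch of chromosome 7, where Saa3 (chr7:46361422-46365124), Saa4 (chr7:46377422-46382027) and Saa1 (chr7:46389921-46392404) run on the minus strand and Saa2 (chr7:46401214-46403737) on the plus strand. Orm1 (chr4:63262797-63266400), Orm3 (chr4:63274399-63277748) and Orm2 (chr4:63280686-63284115) follow each other on the plus strand of chromosome 4, and Lcn2 (chr2:32274645-32278264) is on the minus strand of chromosome 2. Saa1 and Saa2 are close copies whose coding sequences were 95.1% identical in the reference transcripts, with 18 of 369 bases different. Orm1 and Orm2 were 89.9% identical, with 63 of 624 bases different. The sources used here do not give how reads matching more than 1 copy were assigned, and values of single copies are uncertain to that extent. A pair of 60-base coding stretches, bases 91 to 150 of Saa1 and Saa2 counted from the start codon, shows how alike these copies are, with the 7 differing bases in capitals.
Saa1: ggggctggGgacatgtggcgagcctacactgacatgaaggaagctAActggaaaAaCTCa
Saa2: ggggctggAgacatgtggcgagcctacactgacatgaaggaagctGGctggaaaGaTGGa
The same length of Orm1 and Orm2, coding bases 139 to 198, holds 17 differing bases, again in capitals.
Orm1: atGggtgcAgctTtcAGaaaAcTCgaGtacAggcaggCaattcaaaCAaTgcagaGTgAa
Orm2: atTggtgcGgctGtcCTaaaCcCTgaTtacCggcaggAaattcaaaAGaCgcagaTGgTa
Of the stretches of 100 bases in the coding sequence of Saa1, 0% were found whole in the transcripts of Saa2. For Orm1 in the transcripts of Orm2 it was 0.952%. With stretches of 50 bases these shares were 14.7% and 9.74%.

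Promoter sequence from RefSeq was matched by symbol for 7 of the 8 genes in GRCm38.p6. The 250 bases before the start are shown for 5 genes that differed between the groups and have close copies or the larger fold changes. Capitals mark matches, on either strand, to the C/EBP motif TTNNGNAA or, in Orm3 and Lcn2, also to the glucocorticoid receptor motif ACANNNTGT.
Saa1 (chr7:46742981-46743230, - strand): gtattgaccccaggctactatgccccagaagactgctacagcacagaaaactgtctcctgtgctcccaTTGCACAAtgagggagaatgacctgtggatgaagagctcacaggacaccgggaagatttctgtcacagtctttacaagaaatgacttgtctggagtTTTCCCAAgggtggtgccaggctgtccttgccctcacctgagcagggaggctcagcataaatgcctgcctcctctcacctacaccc
Saa2 (chr7:46751583-46751832, + strand): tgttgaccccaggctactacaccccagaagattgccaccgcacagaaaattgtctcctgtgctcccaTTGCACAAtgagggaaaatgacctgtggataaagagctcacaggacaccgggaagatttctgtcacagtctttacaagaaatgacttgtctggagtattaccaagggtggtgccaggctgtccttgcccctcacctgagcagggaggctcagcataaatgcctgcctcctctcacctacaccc
Orm2 (chr4:63362199-63362448, + strand): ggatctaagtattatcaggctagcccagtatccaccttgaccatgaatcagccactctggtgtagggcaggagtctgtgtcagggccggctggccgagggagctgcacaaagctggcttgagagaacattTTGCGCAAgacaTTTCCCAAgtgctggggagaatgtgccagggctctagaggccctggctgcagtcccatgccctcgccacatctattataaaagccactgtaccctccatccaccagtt
Orm3 (chr4:63355908-63356157, + strand): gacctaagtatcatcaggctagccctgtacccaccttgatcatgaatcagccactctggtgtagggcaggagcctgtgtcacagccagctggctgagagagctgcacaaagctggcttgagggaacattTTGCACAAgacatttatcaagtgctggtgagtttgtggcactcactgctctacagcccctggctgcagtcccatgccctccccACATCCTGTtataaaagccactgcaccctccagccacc
Lcn2 (chr2:32387740-32387989, - strand): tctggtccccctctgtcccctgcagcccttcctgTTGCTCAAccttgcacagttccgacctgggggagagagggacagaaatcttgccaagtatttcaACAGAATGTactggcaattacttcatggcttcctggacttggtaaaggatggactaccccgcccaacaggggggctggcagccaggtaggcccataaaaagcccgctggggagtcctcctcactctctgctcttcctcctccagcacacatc
Over 250 bases before to 50 after the start, the C/EBP motif was found in all 7 promoters and in 40.7% of 32851 promoters of the same length. The glucocorticoid receptor motif was found in those of Orm3 and Lcn2 and in 6.85% of all promoters. No match to the STAT motif TTCNNNGAA or to the NF-kB consensus lay in the 7 windows, against 8.30% and 4.51% of all promoters with a match. The promoters of Saa1 and Saa2 were 94.8% identical over the 250 bases and those of Orm2 and Orm3 85.5%. Saa4, which also holds the C/EBP motif, did not pass the test between the groups.

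Of the 8 genes, 6 rose in model livers (Saa1, Saa2, Saa3, Orm2, Orm3 and Lcn2), each by at least 2-fold, and Saa4 and Orm1 did not pass the test. Of the 17456 genes in the fit, 31.2% passed as higher in model livers and 28.8% as lower, and 16.3% passed as higher by at least 2-fold (quasi-likelihood test of edgeR, with a Benjamini-Hochberg adjusted p below 0.05). The group ranges did not overlap for Saa3 and Orm3, with every model mouse above every control, a pattern seen in 9.67% of tested genes, while 6.02% had every model mouse below every control. In bulk liver, a difference in the number of cells of a type and a difference in RNA per cell cannot be told apart. Together the 8 genes took 0.184 ± 0.0463% of the counts in model mice (SD, n = 18) and 0.0932 ± 0.0216% in control mice (SD, n = 6).

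**Figure D1:**
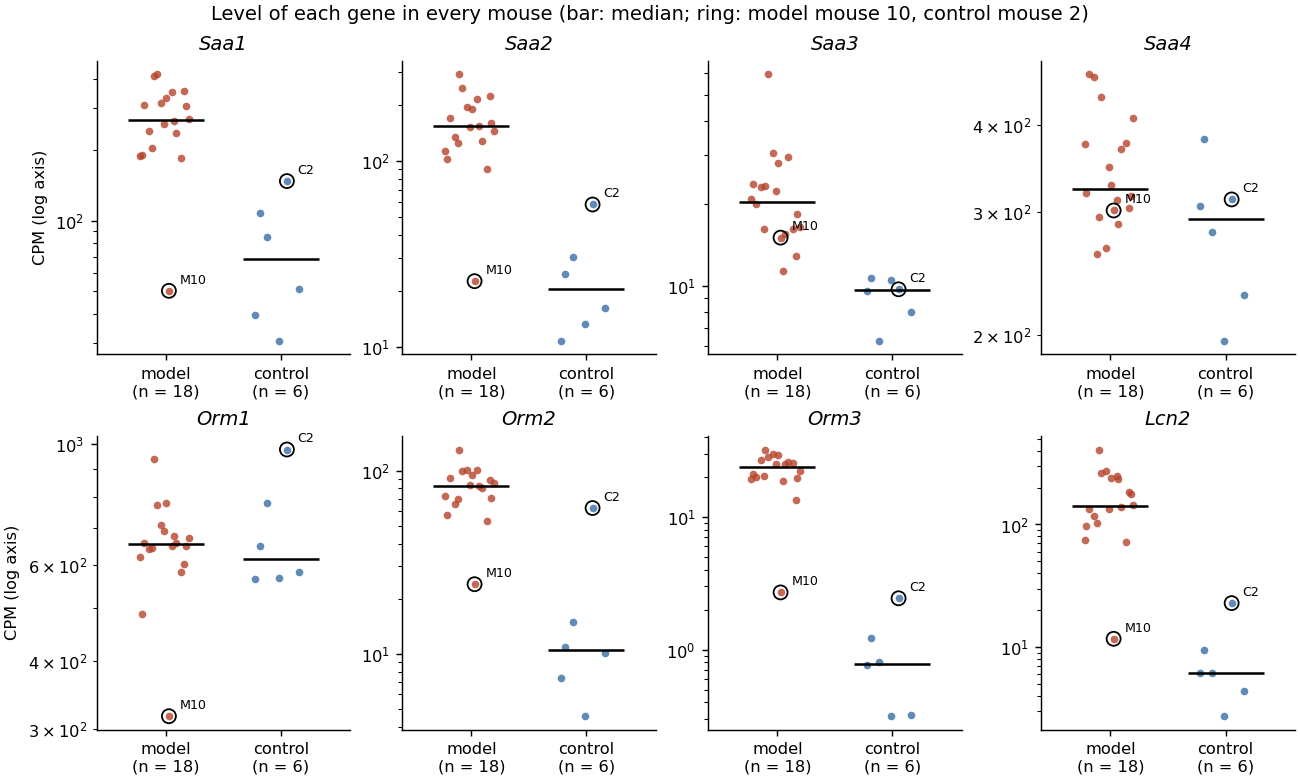
CPM of each gene in every mouse on a log axis, model mice (n = 18) left and control mice (n = 6) right, with the median as a bar and with rings round model mouse 10 and control mouse 2. Saa3 and Orm3 have no overlap between the groups, Orm1 overlaps, and model mouse 10 is the lowest model mouse in 6 of the 8 panels.

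A pair of libraries stood apart from their groups and touch most of these values. Model mouse 10 was the lowest of 18 in 6 of the 8 genes, all but Saa3 and Saa4, and control mouse 2 was the highest of 6 in the same genes. Model mouse 10 was also at the end of the first principal component of all genes over model mice (-63.4), which held 33.1% of their variance. Model mouse 16, the highest in Lcn2, was at the other end (48.8). The summed macrophage markers of model mouse 10 came to 162 CPM and its neutrophil markers to 4.81 CPM. Both were the lowest of the model mice, against medians of 376 and 12.1 CPM. Its stellate (152 CPM) and adipocyte (3.72 CPM) marker sums were the lowest too, and its hepatocyte sum (118060 CPM) was the highest. Control mouse 2 had the highest neutrophil marker sum of the controls, 8.17 CPM against a median of 2.03 CPM. It was also the highest control in the macrophage (81.9 CPM), stellate (133 CPM) and hepatocyte (184102 CPM) sums. Without both mice the log2 fold changes were 2.18 for Saa1, 3.13 for Saa2, 1.34 for Saa3, 3.13 for Orm2, 5.10 for Orm3 and 4.94 for Lcn2. The mice were chosen after seeing these values. In all of these genes but Saa3, leaving out the lowest model mouse and the highest control can only widen the difference. These values therefore add no support for a rise.

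Saa1 and Saa2 encode the serum amyloid A forms that the mouse liver releases in the acute phase, and both rose. Saa1 ranged from 50.2 to 418 CPM in model mice, with a median of 267.8 CPM, and from 30.7 to 147 CPM in control mice, with a median of 68.3 CPM. Every model mouse but mouse 10 lay above the highest control, so the groups overlapped through 1 mouse. This was a log2 fold change of 1.82 with all mice (SE 0.336, adjusted p = 5.57e-05). Saa2 ranged from 22.5 to 292 CPM in model mice (median 153 CPM) and from 10.7 to 58.3 CPM in control mice (median 20.4 CPM). Here too 17 of 18 model mice were above all controls and mouse 10 fell inside their range. For Saa2 the log2 fold change came to 2.63 (SE 0.397, adjusted p = 4.19e-06).

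The 2 copies did not rise in the same proportion. Saa2 made up 36.3 ± 2.34% of the summed Saa1 and Saa2 counts in model mice (SD, n = 18) and 24.8 ± 4.34% in control mice (SD, n = 6). All 18 model mice had a higher share than every control mouse, model mouse 10 included, since the model shares began at 31.0% and the control shares ended at 30.1%. Over the 134596 ways to divide the mice, a two-sided exact permutation test gave p = 7.43e-06, the smallest it can give (adjusted over 4 shares, 9.91e-06). With the counts of both copies summed before the fit, the log2 fold change was 2.07 (adjusted p = 2.07e-05).

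Saa3 is the serum amyloid A gene that in the mouse is known chiefly from macrophages, fat and other tissues outside the hepatocyte, and it rose with no overlap between the groups. It ranged from 11.3 to 59.4 CPM in model mice (median 20.3 CPM) and from 6.28 to 10.6 CPM in control mice (median 9.63 CPM). The highest value belonged to model mouse 8, and the next was 30.6 CPM. The log2 value, at 1.29 (SE 0.263, adjusted p = 0.000166), was the smallest fold change of the 6. Model mouse 10, at 15.0 CPM, was not the lowest for this gene.

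Saa4 encodes the serum amyloid A that is made steadily in liver outside the acute phase. Its levels ran from 262 to 473 CPM in model mice (median 324 CPM) and from 196 to 382 CPM in control mice (median 294 CPM). The ranges overlapped, with 4 of 18 model mice above the highest control. The log2 fold change was 0.29 (SE 0.129, adjusted p = 0.0560), on the margin of the threshold: it was 0.62 with library totals alone as the scaling (adjusted p = 9.20e-05) and -0.13 against control mouse 6 alone (adjusted p = 0.763). As a share of all Saa counts, Saa4 made up 45.1 ± 11.4% in model mice (SD, n = 18) and 73.1 ± 8.31% in control mice (SD, n = 6; exact permutation p = 6.69e-05, adjusted over 4 shares 6.69e-05). That share was lower in 17 of 18 model mice than in every control, the exception being mouse 10 at 77.5%.

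Orm1 encodes the main orosomucoid of mouse liver and did not pass the test. It ranged from 316.5 to 939 CPM in model mice (median 654 CPM) and from 565 to 977 CPM in control mice (median 615 CPM). No model mouse was above the highest control, which was control mouse 2. Its log2 fold change was -0.07 (SE 0.137, adjusted p = 0.667), with a 95% interval that ran from -0.34 to 0.20. Its sign changed to 0.27 with library totals alone (adjusted p = 0.115) and to 0.10 without control mouse 2 and model mouse 10 (adjusted p = 0.429). An unnamed antisense gene overlaps exons of Orm1 and held 1070 counts over the 24 mice, against 645710 for Orm1, and whether the counting used strand is not given in the sources.

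Orm2, a less abundant orosomucoid gene, rose. It ranged from 24.0 to 130.5 CPM in model mice (median 82.8 CPM) and from 4.56 to 62.5 CPM in control mice (median 10.5 CPM). Control mouse 2 held the top control value and the next control was at 14.9 CPM, so the ranges overlapped, and 15 of 18 model mice were above all controls. Its fitted log2 fold change was 2.12 (SE 0.405, adjusted p = 8.50e-05), and 3.08 with control mouse 2 left out.

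Orm3 is the gene between Orm1 and Orm2 and had the largest fold change of the 8. It ranged from 2.70 to 32.2 CPM in model mice (median 23.6 CPM) and from 0.315 to 2.43 CPM in control mice (median 0.784 CPM). The groups did not overlap, although model mouse 10 at 2.70 CPM lay just above control mouse 2 at 2.43 CPM. At 4.47 (SE 0.425, adjusted p = 4.70e-09), its log2 fold change was above that of 99.4% of tested genes.

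The makeup of the orosomucoid counts differed between the groups while their sum did not pass the test. Orm2 and Orm3 together made up 13.4 ± 1.75% of Orm counts in model mice (SD, n = 18) and 2.35 ± 1.95% in control mice (SD, n = 6). Orm3 alone made up 2.91 ± 0.727% in model mice and 0.127 ± 0.0719% in control mice. Both shares were higher in 18 of 18 model mice than in every control (exact permutation p = 7.43e-06 each, the smallest possible; adjusted over 4 shares 9.91e-06). The 3 genes summed gave a log2 fold change of 0.10 (adjusted p = 0.574), since Orm1 held most of the counts.

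**Figure D2:**
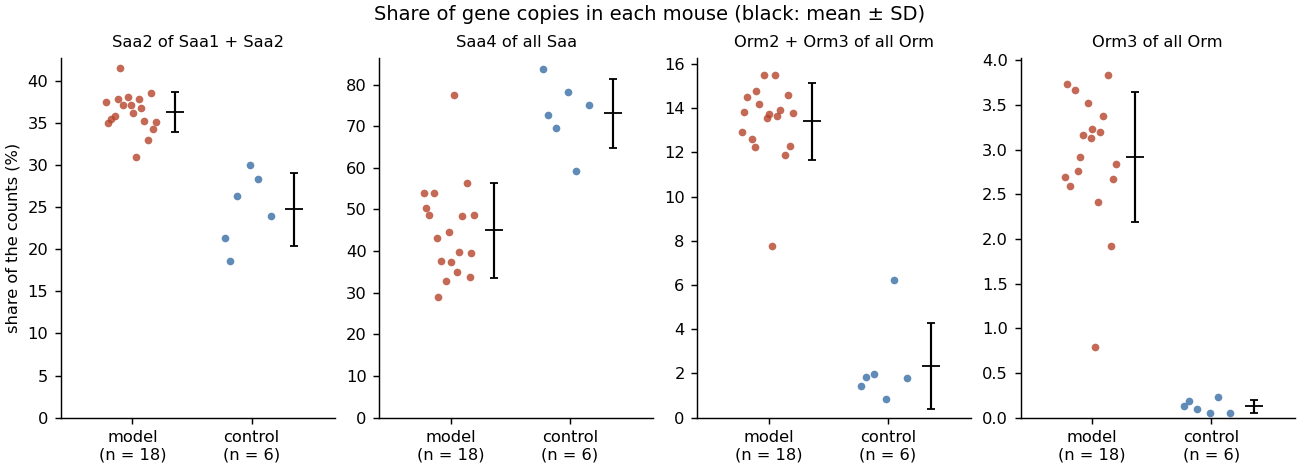
Share of the counts of a gene group held by 1 or 2 of its genes, in percent, for each model mouse (n = 18, left) and control mouse (n = 6, right), with the mean and SD in black. The Saa2, Orm2 with Orm3, and Orm3 shares are higher in every model mouse than in every control, and the Saa4 share is lower in all model mice but mouse 10.

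Lcn2, which encodes lipocalin 2, was among the genes with the largest rise. It ranged from 11.7 to 408 CPM in model mice (median 142 CPM) and from 2.74 to 22.8 CPM in control mice (median 6.19 CPM). The second lowest model mouse was at 71.8 CPM, so the overlap came from model mouse 10 alone, which lay below control mouse 2 and above the other controls. At 4.28 (SE 0.581, adjusted p = 1.02e-06), its log2 fold change was above that of 99.3% of tested genes, and it was 4.87 with control mouse 2 left out.

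Per kilobase of the main reference transcript, the order of the mean levels in model mice was Orm1 (843 ± 162 CPM per kb), Saa1 (446 ± 149), Saa2 (262 ± 104), Lcn2 (185 ± 103), Saa4 (166 ± 31.1), Orm2 (104 ± 29.8), Saa3 (40.2 ± 19.4) and Orm3 (29.1 ± 8.86), with SD over 18 mice. In control mice on the same scale it was Orm1 (886 ± 211 CPM per kb), Saa4 (136 ± 31.6), Saa1 (126 ± 73.9), Saa2 (42.2 ± 29.1), Orm2 (23.7 ± 28.2), Saa3 (16.4 ± 3.03), Lcn2 (9.45 ± 8.00) and Orm3 (1.26 ± 1.02), with SD over 6 mice. In model mice, Saa2 and Lcn2, Lcn2 and Saa4, and Saa3 and Orm3 were neighbours that differed by less than the larger SD of the pair. In control mice this held for Saa4 and Saa1, Saa2 and Orm2, Orm2 and Saa3, and Saa3 and Lcn2. The deposited exon lengths of Saa1, Saa2, Saa3 and Lcn2 are longer, with 2478 bases against 609 for Saa1, and with those lengths Saa1 stood at 110 ± 36.7 CPM per kb in model mice, below Saa4 at 166 ± 31.1.

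**Figure D3:**
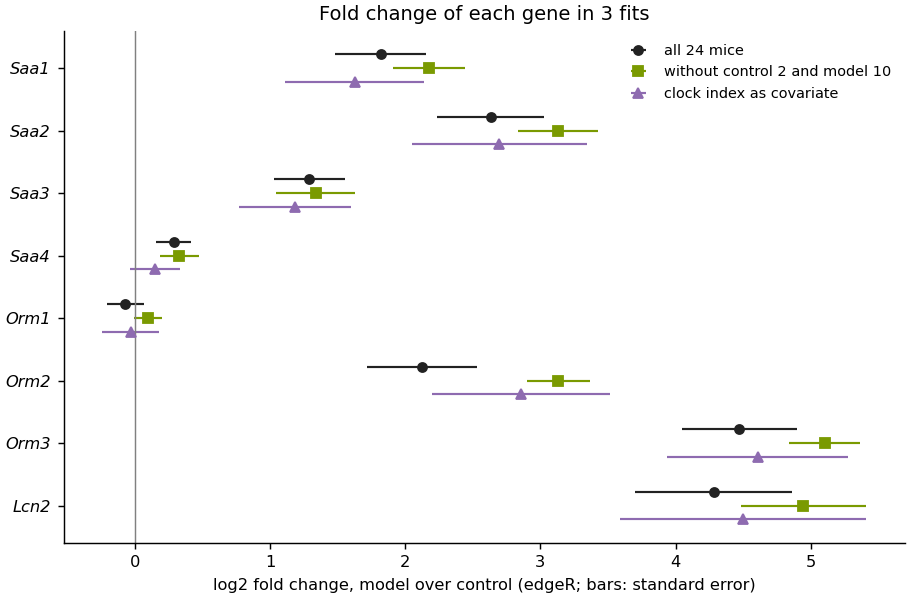
Log2 fold change of model over control livers with its standard error from edgeR, for all 24 mice, without control mouse 2 and model mouse 10, and with a clock gene index in the fit. Saa1, Saa2, Saa3, Orm2, Orm3 and Lcn2 are above 0 by more than their error in each fit, while Saa4 (0.29 with all mice) and Orm1 (-0.07) lie nearest to 0.

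Clock genes moved with the group as well. An index of clock genes, set as the mean z-score of genes that peak with Bmal1 minus that of genes that peak with Dbp and Per2, lay between -1.21 and 0.17 in model mice and between -1.55 and 3.61 in control mice. Of the controls, mouse 6 at -1.55 was near the model mice and the other 5 were above all of them. With the index as a covariate the 6 genes passed as higher, at log2 fold changes of 1.63 for Saa1 (adjusted p = 0.0132), 2.70 for Saa2 (0.00178), 1.19 for Saa3 (0.0232), 2.86 for Orm2 (0.00124), 4.61 for Orm3 (9.74e-06) and 4.50 for Lcn2 (0.000378). Index and group nearly coincide, so this fit leans on control mouse 6. Sampling time and the model cannot be told apart here. Against control mouse 6 alone, a fit in which that mouse is assumed to vary like the model mice, Saa1 at 1.34 (adjusted p = 0.146) and Saa3 at 1.08 (adjusted p = 0.250), each with a standard error of 0.652, no longer passed.

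The spread between mice was compared as the absolute deviation of log2 CPM from the group median. None of the 8 genes passed (limma, adjusted p between 0.581 and 0.987), and 11 of 17456 genes, 0.063%, passed in all. At an unadjusted p below 0.05 there was 1 of the 8, Orm2 (p = 0.0327), with a mean deviation of 0.33 in model mice and 0.81 in control mice, and 1389 genes in all. With so few controls this says little of whether the spreads differ.

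Among the 18 model mice, Saa1, Saa2, Orm1, Orm2 and Lcn2 varied together, and Saa3 and Saa4 did not follow them. All relations used log2 CPM, whose libraries share a scaling, with two-sided permutation p-values from 100000 resamples adjusted over 48 relations. Pearson's r of Saa1 with Saa2 was 0.992 and Spearman's rho 0.988 (p = 1e-05 each, the smallest these resamples give, adjusted 8e-05), though these copies may share reads. Saa1 with Lcn2 gave r = 0.965 and rho = 0.917 (p = 1e-05 each, adjusted 8e-05), and r = 0.903 without the 2 mice farthest from the median of Saa1. Genes of different families thus varied together across the model mice. Whether these relations go beyond the main variation of all genes over these mice was not tested. The share of all gene pairs with relations as strong was not computed. Saa1 with Orm2 gave r = 0.954 and rho = 0.897 (p = 1e-05 each, adjusted 8e-05), and r = 0.871 without the 2 farthest mice. Saa1 with Orm1 gave r = 0.90 (p = 3e-05, adjusted 0.000144) and rho = 0.684 (p = 0.00214, adjusted 0.00571), and r = 0.677 without the 2 farthest mice. Orm1 thus varied with the acute phase copies between model mice although its level did not pass the test between the groups.

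Several other pairs were weaker or rested on model mouse 10, but Orm1 with Orm3 did not rest on it. That pair gave r = 0.875 (p = 0.0003, adjusted 0.00103) and rho = 0.705 (p = 0.00169, adjusted 0.00507). Without mouse 10 it passed both tests, at r = 0.604 (adjusted p = 0.028) and rho = 0.650 (adjusted p = 0.0185), though these copies may share reads. Saa1 with Orm3 gave r = 0.806 (p = 0.0161, adjusted 0.0289) but rho = 0.309 (p = 0.212, adjusted 0.351), and r = 0.147 without mouse 10, so this relation rests on that mouse. Saa1 with Saa3 gave r = 0.294 (p = 0.202, adjusted 0.297) and rho = 0.201 (p = 0.420, adjusted 0.560). Saa1 with Saa4 gave r = 0.115 (p = 0.665, adjusted 0.798) and rho = -0.059 (p = 0.818, adjusted 0.879). Saa3 came nearest to Orm3, at rho = 0.742 (p = 0.00061, adjusted 0.00279) with r = 0.438 (p = 0.0712, adjusted 0.122), and r was 0.650 without mouse 10. Of the 28 pairs of the 8 genes, 11 passed both adjusted tests, and 12 without mouse 10.

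**Figure D4:**
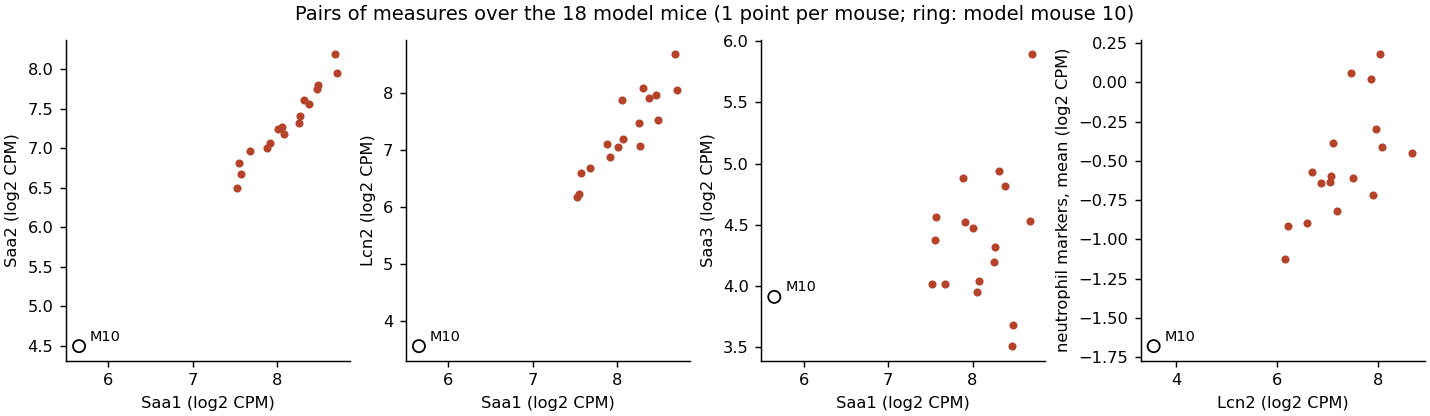
Pairs of measures in log2 CPM over the 18 model mice, 1 point per mouse, with model mouse 10 ringed. Saa2 and Lcn2 follow Saa1 (r = 0.992 and 0.965), Saa3 does not (r = 0.294), and the mean of the neutrophil markers follows Lcn2 (r = 0.805).

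Lcn2, Saa1 and Orm2 also varied with marker genes of other cells in model livers. How many other genes varied as strongly with these markers was not counted, so the relations are not shown to be particular to these genes. Lcn2 with the mean of 9 neutrophil markers gave r = 0.805 (p = 0.00015, adjusted 0.0006) and rho = 0.725 (p = 0.00095, adjusted 0.00351), and r = 0.725 without the 2 farthest mice. With the mean of 10 macrophage markers it gave r = 0.823 (p = 0.00011, adjusted 0.00048) and rho = 0.703 (p = 0.00185, adjusted 0.00522), and r = 0.665 without the 2 farthest mice. Lcn2 with Il1b gave r = -0.100 (p = 0.715, adjusted 0.817) and rho = -0.088 (p = 0.729, adjusted 0.834), so no relation with this inducing cytokine's transcript was detected. With Socs3, a feedback inhibitor induced through STAT3, Lcn2 gave r = 0.612 (p = 0.00568, adjusted 0.0114) and rho = 0.598 (p = 0.00952, adjusted 0.0210), and r = 0.50 without the 2 farthest mice. Without mouse 10 the rank test of that relation missed the threshold (rho 0.529, adjusted p = 0.0677). Saa1 with Socs3 gave r = 0.647 (adjusted p = 0.00601) and rho = 0.728 (adjusted p = 0.0034). Without mouse 10 it passed both tests, at r = 0.719 (adjusted p = 0.0041) and rho = 0.684 (adjusted p = 0.0126). For Orm2 with Socs3 the rank test missed without mouse 10 (rho 0.532, adjusted p = 0.0677), and Saa3 with Socs3 gave r = 0.120 with all mice. Saa1 with the macrophage markers gave r = 0.791 (p = 0.00041, adjusted 0.00131) and rho = 0.645 (p = 0.00498, adjusted 0.0126), and r = 0.678 without the 2 farthest mice. Orm2 with the neutrophil markers gave r = 0.707 (p = 0.00215, adjusted 0.0054) and rho = 0.538 (p = 0.0232, adjusted 0.0464), but r = 0.448 without mouse 10 (adjusted p = 0.144), so this relation rests on that mouse. With the mean of 7 cholangiocyte markers, Lcn2 gave r = 0.639 (p = 0.00103, adjusted 0.00291) and rho = 0.775 (p = 0.00036, adjusted 0.00192), Orm2 gave r = 0.62 (p = 0.00152, adjusted 0.00405) and rho = 0.744 (p = 0.00064, adjusted 0.00279), and Saa1 gave r = 0.565 (p = 0.00406, adjusted 0.00886) and rho = 0.715 (p = 0.00129, adjusted 0.00442). Without the 2 farthest mice of each these r were 0.664 for Lcn2, 0.627 for Orm2 and 0.822 for Saa1. Without mouse 10 they were 0.717 for Lcn2, 0.687 for Orm2 and 0.641 for Saa1, and each passed both tests. These samples of whole liver cannot place a transcript in a cell type. Saa3 with the macrophage markers gave r = 0.0017 (p = 0.994, adjusted 0.994) and rho = -0.057 (p = 0.824, adjusted 0.879), though macrophages are known to make it.

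The genes most like Lcn2 over the 18 model mice, by Spearman's rho among 9611 genes that averaged 5 CPM or more, were Atf3 (0.928), which encodes a stress-induced transcription factor, Sept11 (0.926) and Pbxip1 (0.884). Those most like Orm2 were Slc20a1 (0.851), Bhlhe40 (0.839) and Atf3 (0.837), and those most like Saa1 were Cyb561 (0.816), Atf3 (0.812) and Serpina10 (0.812). For Saa3 they were Gm3839 (0.833), Nat8 (0.825) and Ap3m1 (0.808). All these genes were picked by rank in these same data. Lcn2, Orm2 and Saa1 varied together over these mice and Saa3 did not follow them, so the lists are not independent. Atf3 appeared in the lists of Lcn2, Orm2 and Saa1 and not in that of Saa3. Its level was 13.0 ± 5.77 CPM in model mice (SD, n = 18) and 2.72 ± 1.42 CPM in control mice (SD, n = 6), 2.27 higher on the log2 scale (SE 0.381, adjusted p = 1.65e-05).

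Other acute phase genes went both ways. Of 21 tested positive acute phase genes, 5 rose (Steap4, Mt1, Mt2, Cd14 and Il1rn), 9 fell (Crp, Lbp, Fga, Fgb, Fgg, Itih3, Itih4, Serpina3m and C3) and 7 did not pass, with a median log2 fold change of -0.28 against 0.01 for all tested genes. Il1rn, the interleukin 1 receptor antagonist, stood at 21.2 ± 5.62 CPM in model mice and 2.51 ± 0.589 CPM in control mice (log2 fold change 3.07, adjusted p = 1.39e-11). Cd14, a lipopolysaccharide co-receptor also made by macrophages, stood at 10.9 ± 4.97 CPM in model mice and 2.10 ± 0.993 CPM in control mice (2.37, adjusted p = 5.30e-06). Serpina3n, a strongly inducible mouse acute phase gene, stood 0.26 higher on the log2 scale (adjusted p = 0.0571), and haptoglobin (Hp) 0.13 (adjusted p = 0.322). This balance depended on the setting. With library totals alone 9 of the 21 rose and 1 fell, in a fit where 9406 of 17456 tested genes rose and 1562 fell. In that fit, 5 of the 9 genes from Crp to C3 named above were still below 0 in log2 fold change. Without control mouse 2 and model mouse 10, 9 rose and 6 fell. With the clock covariate 3 rose and 1 fell, and the median of the 9 genes was -0.19, against -0.33 with all mice and no covariate.

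Of 9 negative acute phase genes, which liver lowers in the response, 7 fell, 0 rose and 2 did not pass, with a median of -0.60 in log2. Of all tested genes, 28.8% fell. Genes of this list, Alb and Apoa1 among them, are also counted with the hepatocyte markers below, of which 6 of 8 fell. Whether the fall is separate from that of hepatocyte transcripts was not tested. Alb, serum albumin, stood at 61861 ± 12336 CPM in model mice and 113726 ± 23984 CPM in control mice (log2 fold change -0.88, SE 0.13, adjusted p = 1.38e-06). Apoa1, the main protein of high-density lipoprotein, changed by -0.85 in log2 (adjusted p = 2.16e-07). With library totals alone 2 of the 9 rose and 5 fell.

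**Figure D5:**
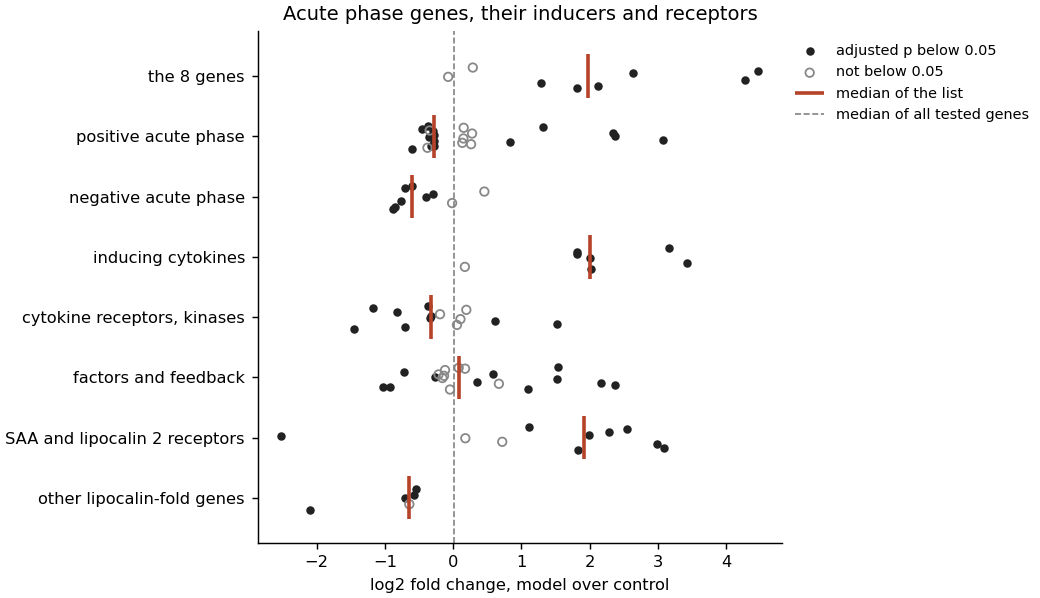
Log2 fold change of model over control livers for the 8 genes and for the tested genes of 7 lists, filled where the adjusted p was below 0.05, with each list's median in red and the median of all tested genes as a dashed line. The inducing cytokines and the receptors of serum amyloid A and lipocalin 2 lie mostly to the right of 0, like 6 of the 8 genes. The cytokine receptors and kinases have a median of -0.32, and the other acute phase genes lie on both sides.

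Cytokines that induce the acute phase were low in these livers and mostly higher in model mice. Of 7 tested, 6 rose (Il1a, Il1b, Tnf, Lif, Clcf1 and Il33) and Il18 did not pass, with a median log2 fold change of 2.01. Tnf stood at 0.738 ± 0.256 CPM in model mice and 0.0607 ± 0.0585 CPM in control mice (3.43, adjusted p = 6.67e-08). Lif stood at 0.297 ± 0.217 CPM in model mice and 0.0315 ± 0.0217 CPM in control mice (3.16, adjusted p = 0.000142). Interleukin 6, the best known inducer, was too low to test, with 22 counts over the 18 model libraries and 4 over the 6 control libraries. Osm, an interleukin 6 relative, had 92 counts in model libraries and 2 in control libraries, and was not tested.

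On the receiving side, 2 of 13 tested receptor and kinase genes rose (Osmr and Tnfrsf1a), 7 fell and 4 did not pass. Osmr, the oncostatin M receptor, stood at 4.51 ± 1.42 CPM in model mice and 1.57 ± 0.385 CPM in control mice (1.52, adjusted p = 2.26e-06). Il6ra, the interleukin 6 receptor, stood at 29.4 ± 5.63 CPM in model mice and 80.4 ± 23.2 CPM in control mice (-1.45, adjusted p = 1.34e-09). The 7 lower calls were 4 with the clock covariate and 3 with library totals alone.

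Of 19 transcription factor and feedback genes, 7 rose (Nfkb1, Nfkb2, Relb, Nfkbie, Nfkbiz, Bcl3 and Tnfaip3), 4 fell, Cebpb, Cebpd and Hnf4a among them, and 8 did not pass. The 36.8% that rose compares with 31.2% of all tested genes. Relb, an NF-kB subunit, changed by 2.37 in log2 (adjusted p = 5.72e-09), and Tnfaip3, which encodes an inhibitor of NF-kB signalling, by 2.16 (adjusted p = 8.11e-09). Cebpb, a C/EBP factor of the acute phase, changed by -1.03 (adjusted p = 4.71e-06). Rela, another NF-kB subunit, at -0.13 (adjusted p = 0.149) and Nfkbia, which encodes an NF-kB inhibitor, at -0.12 (adjusted p = 0.211) did not pass. Stat3 at -0.05 (adjusted p = 0.685) and Socs3 at -0.21 (adjusted p = 0.172) did not pass. With library totals alone, 11 of the 19 rose and 2 fell, in a fit where 9406 of 17456 tested genes rose and 1562 fell.

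Receptors through which serum amyloid A and lipocalin 2 are known to act or be taken up were mostly higher in model livers. Of 10 tested, 7 rose (Fpr1, Fpr2, Tlr2, Tlr4, Cd36, P2rx7 and Slc22a17), Lrp2 fell and 2 did not pass, with a median log2 fold change of 1.92. Cd36, a scavenger receptor and fatty acid transporter, stood at 332 ± 44.8 CPM in model mice and 39.1 ± 12.0 CPM in control mice (3.09, adjusted p = 2.17e-14). Tlr2 stood at 9.01 ± 2.41 CPM in model mice and 1.13 ± 0.203 CPM in control mice (2.99, adjusted p = 5.17e-11). Slc22a17, described as a lipocalin 2 receptor, stood at 0.849 ± 0.223 CPM in model mice and 0.392 ± 0.0614 CPM in control mice (1.11, adjusted p = 4.15e-05). Other genes of the lipocalin fold went the other way from Lcn2, with 4 of 5 tested lower, 0 higher and 1 not passing. This list overlaps with that of the negative acute phase genes. Apom, an apolipoprotein of the fold, stood at 82.1 ± 15.5 CPM in model mice and 350 ± 33.3 CPM in control mice (-2.09, adjusted p = 2e-14).

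Markers of other cells moved with the group, and their part in the levels of the 8 genes was not tested. The liver label held, with Alb at the levels given above. Of 13 neutrophil markers 9 were tested and 7 rose, led by Mmp8 (2.68, adjusted p = 0.000222, and 4.12 without control mouse 2). Their summed level lay between 4.81 and 18.0 CPM in model mice and between 0.881 and 8.17 CPM in control mice. The defining neutrophil genes were near 0, with Ly6g at 9 counts over 18 model libraries and 1 over 6 control libraries, and Mpo at 35 counts over model libraries and 8 over control libraries. Lcn2 averaged 170 ± 94.5 CPM in model mice, and how much of it came from neutrophils was not tested. All 10 macrophage markers rose, at summed levels of 162 to 726 CPM in model mice and 32.2 to 81.9 CPM in control mice, led by Gpnmb (8.81, adjusted p = 4.15e-09). Of 7 tested cholangiocyte markers 2 rose and 5 did not pass, at 54.5 to 451 CPM in model mice and 61.1 to 96.2 CPM in control mice, and Spp1, also known from macrophages, took most of that sum. The call of Spp1 (1.96, adjusted p = 0.00225) ended with the clock covariate (1.73, adjusted p = 0.0813). Of 5 adipocyte markers only Cfd was high enough to test (5.30, adjusted p = 2.20e-06, and 5.92 without control mouse 1). Lep had 1 count over the 18 model libraries and Retn 13, and both had 0 in controls. All 7 stellate markers rose, at 152 to 381 CPM in model mice and 52.0 to 133 CPM in control mice, led by Col1a1 (3.85, adjusted p = 1.93e-07). Of 6 endothelial markers 4 rose, led by Stab2 (1.46, adjusted p = 1.74e-08), at 46.0 to 150 CPM in model mice and 30.0 to 58.6 CPM in control mice. Of 8 hepatocyte markers 6 fell and 2 did not pass, led by Tat (-2.02, adjusted p = 2.95e-09), and summed to 57439 to 118060 CPM in model mice and 118524 to 184102 CPM in control mice. Against control mouse 6 alone, a single library with wider errors, Apoa1 (-0.63), Lif (2.11), Osmr (1.34), Mmp8 (2.92), Spp1 (1.41) and Cfd (4.80) kept their direction without passing (adjusted p from 0.0625 to 0.457).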

How the data were processed

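Gene transcripts were counted in liver of 18 model and 6 control mice. Per the labels' protocols, messenger RNA was caught on oligo(dT) beads and sequenced as DNA nanoballs. The authors deposited whole-number read counts for each Ensembl gene. Exon positions and a gene length in bases, another unit, stand beside them per the file headers, and the length served only for levels per kilobase. The genome build was GRCm39, per the submitters' processing notes. Aligner, counter and strandedness are not given in the sources. A reference table gave symbols for 51498 of 78298 IDs, which held 99.6% of counts, and of IDs sharing 1 of 58 symbols the one with most counts kept it. Within each group, every pair of libraries differed by more than sampling noise (smallest chi-square per degree of freedom 19.1). The CPM floor of 3 counts covers counting error only.

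Groups were compared in edgeR 4.0.16 (R 4.3.3) by its robust quasi-likelihood test, with TMM factors, the default filter by group and no covariate, adjusted by Benjamini-Hochberg over 17456 genes. TMM factors averaged 1.06 ± 0.061 in model mice and 0.843 ± 0.0285 in control mice, and with library totals alone the median gene shifts to 0.34 on the log2 scale. Standard errors come from the fit, and CPM use TMM-scaled totals. The code was tested on simulated data. Spread used limma 3.58.1, and relations used permutation tests on log2 CPM with a prior count of 2 (with scipy 1.17.1). Shares used an exact permutation test on count shares, over all divisions of the mice. Coding sequences came from the GENCODE transcripts given with a GRCm38.p6 reference, and promoters from RefSeq in GRCm38.p6. Alternatives were DESeq2 1.42.0, limma-voom, RLE factors, library totals alone, other filters, a threshold of 0.01, a replicate block, close copies summed, a clock covariate and each library left out. Leaving out control mouse 2 and model mouse 10, using control mouse 6 alone, and the tests of shares were chosen after seeing the data. The 8 genes and all lists were chosen with earlier results of these data known. Named genes are the 8, the 2 called genes of largest change in each of 7 pathway lists and 1 in each of 7 marker lists, and the 3 genes most like each of 4 of the 8. Other list genes are examples chosen after their values were seen. The name of 1 further list gene is left out, while it stays in its list's counts.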

Additional observations from a re-analysis of the deposited data

Results flagged for a closer look

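Control mouse 2 lay far from the other 5 controls in 4 of the 33 measures checked among the 6 controls. The rule compares the gap to the next mouse with the whole range. It sets a sample apart in about 1 of 20 measures when values are normally distributed. Here it was used on CPM and percentages, so that rate need not hold and the outcome may depend on the scale. Its Orm2 level was 62.5 CPM, with the next control at 14.9 CPM. Its Lcn2 level was 22.8 CPM, with the next control at 9.53 CPM. Orm2 and Orm3 made up 6.24% of its Orm counts, with the next control at 1.98%. The neutrophil gene Mmp8 stood at 0.149 CPM in the same mouse, a level of few counts. The 4 measures come from 1 mouse and are not independent of each other.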

How the results depend on the processing

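Saa2 and Lcn2 were called higher in each of 13 alternative settings and in each of 24 fits with a library left out. Orm2 and Orm3 lost their call only when the Orm counts were summed (0.10, adjusted p = 0.574, which is also a changed sign for Orm1), and Saa1 (1.34, adjusted p = 0.146) and Saa3 (1.08, adjusted p = 0.250) only against control mouse 6 alone, where Saa4 was -0.13 and Orm1 0.017. Saa4 passed with library totals alone (0.62), limma-voom (0.30, adjusted p = 0.0412) and a filter of 1 CPM in 6 libraries (0.32, adjusted p = 0.0356). Orm1 was 0.27 with library totals alone and 0.10 without control mouse 2 and model mouse 10. The genes called higher and lower were 9406 and 1562 with library totals alone, a scaling that moves all genes up, and 2588 and 1899 against control mouse 6 alone, with fewer libraries.

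With each library left out in turn, log2 fold changes ran from 1.65 to 2.11 for Saa1, 2.47 to 3.06 for Saa2, 1.14 to 1.33 for Saa3, 0.19 to 0.39 for Saa4, -0.13 to 0.055 for Orm1, 1.91 to 3.08 for Orm2, 4.28 to 5.03 for Orm3 and 4.09 to 4.87 for Lcn2. Saa4 passed without control mouse 6 (0.39, adjusted p = 0.0160), model mouse 3 (0.31, adjusted p = 0.0372) or model mouse 13 (0.30, adjusted p = 0.0444), and Orm1 turned positive without control mouse 2. Genes called higher numbered 5198 to 5474 and lower 4787 to 5175, and 6 to 7 of the 8 genes rose.

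Over other named genes and relations, 13 values lost their call in an alternative and 1 gained it, and 42 list counts moved by over 1.5 times. Weak relations changed sign. With library totals alone r was 0.129 for Saa4 with Lcn2, 0.0651 for Saa1 with Il1b and 0.0047 for Lcn2 with Il1b. Without model mouse 10 it was -0.057 for Saa1 with Saa4, -0.167 for Saa2 with Saa4, -0.066 for Saa4 with Orm1, -0.163 for Saa4 with Orm2, 0.113 for Saa1 with Il1b and -0.180 for Saa3 with the macrophage markers. Without that mouse 20 of 48 relations passed both tests, against 23 with it, and the r of Orm3 with Saa1, Saa2, Orm2 and Lcn2 no longer passed.

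Replicate numbers shared by mice 1 to 6 of each group did not pair them, with correlations of same-numbered deviations from -0.381 to 0.102 and 1 of 6 model mice correlating best with its own number. With the replicate block, 3892 genes were higher and 3459 lower, against 4127 and 3987 in the same 12 libraries without it, and the same 6 of the 8 genes rose, Orm2 at 2.76. The cause of the changes was not tested. Depth limits Il6, Ly6g and other genes near the floor of 3 counts, and the small control group limits tests of spread.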
